A study of Mus musculus with 3 samples.

Results

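The let-7 family hairpin loci are the places in the mouse genome from which let-7 microRNAs (miRNAs) are made. The 10 autosomal let-7 hairpins (Mirlet7a-1, Mirlet7a-2, Mirlet7b, Mirlet7c-1, Mirlet7c-2, Mirlet7d, Mirlet7e, Mirlet7f-1, Mirlet7g and Mirlet7i) were taken by name from the GENCODE mouse M21 annotation on GRCm38, with 5 kb on each side. They are 10 of the 2202 annotated miRNA hairpins, and their windows merge into 7 loci. Peaks came from Argonaute 2 (Ago2) HITS-CLIP of N2A cells, a mouse neuroblastoma line, untreated and kept under basal conditions. Each of the 3 libraries was made from cells crosslinked with ultraviolet light at 400 mJ per square cm once and then at 200 mJ per square cm 2 times, and Ago2 was pulled down with the antibody clone 2D4. All libraries form 1 group, numbered as replicates 1 to 3, and nothing says that they came from separate cultures, so spread and p-values describe these libraries, and may be technical.

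A miRNA gene is transcribed as a long primary RNA. Drosha cuts out a hairpin with a 5p arm, a terminal loop and a 3p arm, Dicer removes the loop, and 1 arm is kept by an Argonaute protein as the guide. For let-7 the 5p arm is the usual guide, the seed near its 5′ end pairs with targets, and the family is known for rising as cells differentiate. LIN28 proteins bind the loop of many let-7 precursors and hold back their maturation. In HITS-CLIP, RNA fragments crosslinked to Ago2 are sequenced, so a peak over a hairpin can come from a mature miRNA or a precursor.

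The mature sequences are shown because 2 facts about them bear on every value below: all 10 guides share a seed, and some are identical between loci. Sequences are RefSeq's (GRCm38.p6), and all 10 hairpins lay at the same place in RefSeq. Capitals mark the seed, bases 2 to 8. The 8 distinct 5p sequences of the 10 hairpins all carried the seed GAGGUAG.
let-7a-5p: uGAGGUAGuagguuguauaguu
let-7b-5p: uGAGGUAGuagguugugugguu
let-7c-5p: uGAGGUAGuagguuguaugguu
let-7d-5p: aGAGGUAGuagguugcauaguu
let-7e-5p: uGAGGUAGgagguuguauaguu
let-7f-5p: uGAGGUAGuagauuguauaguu
let-7g-5p: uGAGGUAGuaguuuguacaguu
let-7i-5p: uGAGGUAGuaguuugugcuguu

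The 3p sequences varied more. Their seeds fell into 7 kinds, of which UAUACAA was shared by Mirlet7a-1, Mirlet7b, Mirlet7c-2 and Mirlet7f-1, and each of the others belonged to 1 hairpin. The sequences below are those over which peaks were found, with the sequence common to let-7a-1-3p and let-7c-2-3p, over which none was, placed last.
let-7d-3p: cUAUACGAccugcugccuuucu
let-7g-3p: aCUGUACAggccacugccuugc
let-7i-3p: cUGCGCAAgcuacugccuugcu
let-7e-3p: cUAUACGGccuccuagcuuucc
let-7f-1-3p: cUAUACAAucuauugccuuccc
let-7a-2-3p: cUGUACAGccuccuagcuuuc
let-7b-3p: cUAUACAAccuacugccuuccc
let-7a-1-3p and let-7c-2-3p: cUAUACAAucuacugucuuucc

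An exact search of both strands of the 21 primary nuclear chromosomes placed let-7a-5p at 2 hairpins (Mirlet7a-1 and Mirlet7a-2) and let-7c-5p at 2 (Mirlet7c-1 and Mirlet7c-2). The let-7f-5p sequence was also found at 2, Mirlet7f-1 and Mirlet7f-2, of which Mirlet7f-2 is X-linked and not a member. The 5p sequences of Mirlet7b, Mirlet7d, Mirlet7e, Mirlet7g and Mirlet7i were each found 1 time. No mature let-7 sequence matched outside an annotated hairpin. A fragment that holds only a recurring mature sequence matches each of its loci equally well, and how the authors' processing placed such fragments is not given in the sources used here.

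In genomic order of the loci, Mirlet7a-2 lay at chr9:41536716-41536811 on the plus strand, in introns of the non-coding genes 3110039I08Rik and Gm49317. Mirlet7g lay at chr9:106178840-106178927, plus strand, in an intron of the protein-coding gene Wdr82. Mirlet7i lay at chr10:122985640-122985724, minus strand, in an exon of the transcribed pseudogene D630033A02Rik. A trio on the minus strand of chromosome 13 lay in exons of the long non-coding RNA 6720427I07Rik, with Mirlet7a-1 at chr13:48538179-48538272, Mirlet7f-1 at chr13:48537829-48537917 and Mirlet7d at chr13:48536012-48536114. Mirlet7c-2 at chr15:85706603-85706697 and Mirlet7b at chr15:85707319-85707403, both plus strand, lay in exons of the non-coding gene Lncppara. Mirlet7c-1 at chr16:77599657-77599750, plus strand, lay in an intron of the miRNA host gene Mir99ahg and opposite an intron of Gm11146. Mirlet7e lay at chr17:17830352-17830444, plus strand, in an intron of the protein-coding gene Spaca6. Annotated hairpins on the opposite strand covered Mirlet7f-1 (Gm24111) and Mirlet7e (Gm25927).

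The loop is shown at its 3′ end, where let-7 precursors carry letters known to be bound by LIN28. The letters GGAG, searched on the transcribed strand between the mature arms, were present in the loop of 8 of the 10 let-7 hairpins and in 8.27% of the 629 hairpins for which both mature arms are known. The last 16 bases before the 3p arm are given for 5 hairpins, with GGAG in capitals: the 3 that had peaks in every library and the 2 without these letters.
Mirlet7d: gcccacaaGGAGuuaa
Mirlet7g: cccgguacaGGAGaua
Mirlet7i: cccgcuguGGAGauaa
Mirlet7b: gccccuccgaagauaa
Mirlet7c-2: ccccgcucugcgguaa

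Over the whole genome the deposited table held 711377, 498071 and 829936 peaks in replicates 1, 2 and 3, with median widths of 83 to 85 nt. It lists intervals and a score, not reads, so read depth behind a peak is unknown and no level of a miRNA can be given. The cell line's label was checked through peaks in the 3′UTRs of marker genes. Of 10 neuronal markers 5 had such a peak in all libraries, beside 23.9% of 21028 protein-coding genes, and 1, Nefl, in none. The counts in all libraries were 1 of 5 for myeloid, 2 of 4 for oligodendrocyte and 0 of 3 for astrocyte markers, so these peaks do not separate neuronal from oligodendrocyte markers.

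Mirlet7d, Mirlet7g and Mirlet7i had a peak on their own strand in all 3 libraries, and the other 7 hairpins did not. For Mirlet7d this rests on a peak of 335 nt in replicate 3, and with peaks over 200 nt left out the count was 2 of 10. These 3 of 10 compare with 8.4% of all 2202 hairpins and 21.8% of the 629 with both arms known. Mirlet7e had a peak in replicates 2 and 3, which made 4 of 10 in at least 2 libraries against 18.2% of all hairpins. Mirlet7a-2 had 1 peak in replicate 3, Mirlet7b 1 in replicate 1 and Mirlet7f-1 1 in replicate 2. With these, 7 of 10 were covered in at least 1 library, against 35.8% of all hairpins and 67.9% of those with known arms. Mirlet7a-1, Mirlet7c-1 and Mirlet7c-2 had no same-strand peak in any library. In replicates 1, 2 and 3 the let-7 hairpins had 7, 6 and 7 same-strand peaks, beside 402, 666 and 674 over all hairpins.

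On the opposite strand a single let-7 hairpin was covered, Mirlet7c-1 in replicate 3. That peak had a central part of 24 nt, and Mirlet7c-1 was 1 of the 3 hairpins with no peak on their own strand. Of all hairpins 13.6% had an opposite-strand peak in at least 1 library, 2.18% in at least 2 and 0.409% in all. For let-7 the last counts were 0 of 10 each, and without replicate 3 the count in any library was 0 of 10 too.

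Position within the hairpin was read from the central part of each peak, which is what remains when 30 nt are taken from each side. The peaks appear to have been widened by that amount, since the lowest start in the table is -30, and over all hairpins the commonest distance between a central part's 5′ end and the mature 5′ end was 0 nt (498 of 1030). At the 3′ end the commonest distance was 3 nt past the mature end (184 of 1030), with 39 at 0 nt, so the padding was judged from 5′ ends. A central part counted for an arm when it covered at least 15 nt of it, and for the loop when it covered at least 8 nt, each central part being taken on its own.

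**Figure D1:**
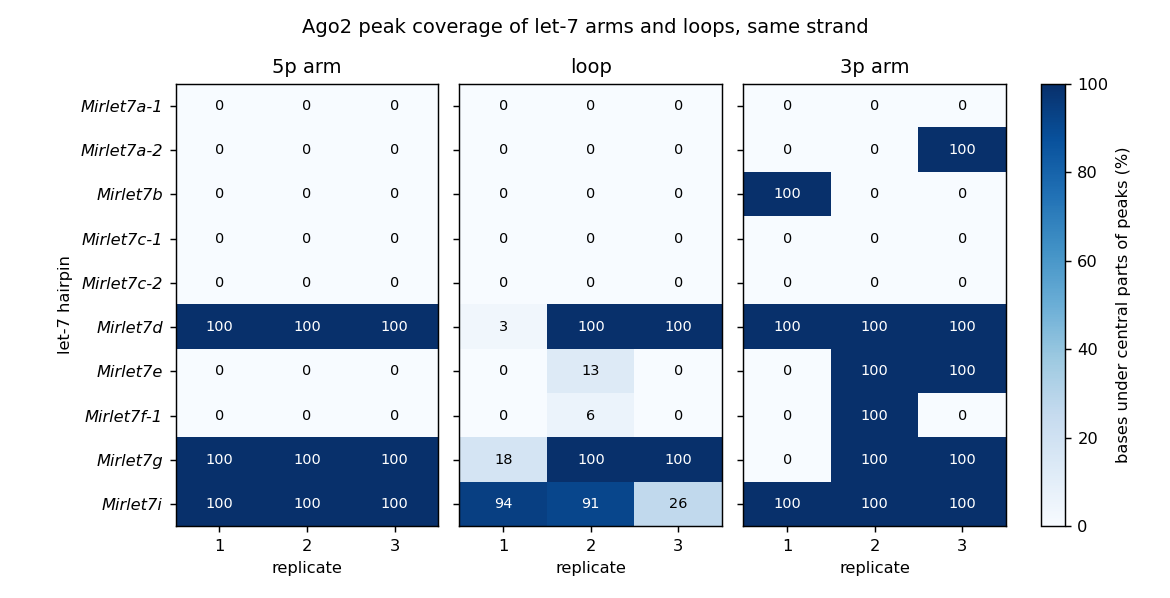
Percent of the bases of each 5p arm, loop and 3p arm (columns of panels) under central parts of same-strand peaks, for the 10 let-7 hairpins (rows) in replicates 1, 2 and 3. The 5p arm was either wholly covered, in Mirlet7d, Mirlet7g and Mirlet7i in all 3 replicates, or not covered at all, whereas 3p arms of 7 hairpins were covered in at least 1 replicate.

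The guide arm was covered at the same 3 hairpins in every library. A central part lay over the 5p arm of Mirlet7d, Mirlet7g and Mirlet7i in all 3 libraries, 3 of 10 against a background of 13.4% of 629 hairpins. No other 5p arm of the 10 members was covered in any library. The count in at least 1 library was thus also 3 of 10, against 46.1%. With peaks of 86 to 200 nt alone the count in all libraries was 1, Mirlet7g. Each covered 5p arm was covered over all its 22 nt.

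The 3p arm, usually the discarded strand, was covered at more hairpins and less regularly. Mirlet7d and Mirlet7i had a central part over it in all 3 libraries, 2 of 10 against 12.4% of hairpins. Mirlet7e and Mirlet7g had one in replicates 2 and 3, and Mirlet7a-2, Mirlet7b and Mirlet7f-1 in a single library each. In at least 1 library 7 of 10 were thus covered, against 52.9%. Without replicate 1, in which Mirlet7e and Mirlet7g were not covered on this arm, the count in all remaining libraries was 4 of 10. With peaks of 86 to 200 nt it was 0 of 10 in all 3 libraries. The number of 3p arms covered was 3, 5 and 5 in replicates 1, 2 and 3, and the number of 5p arms was 3 in each.

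Summed over the members, central parts covered 30% of the 5p bases in each of the 3 replicates. They covered 30.1%, 50.2% and 49.8% of the 3p bases in replicates 1, 2 and 3. The difference, 3p minus 5p, was 13.4 ± 11.5 percentage points (mean ± SD, n = 3), with nearly no difference in replicate 1. Over the 629 hairpins with known arms the covered share was 20%, 32.8% and 33.0% of 5p bases and 19.7%, 39.2% and 36.8% of 3p bases, so a higher 3p share in replicates 2 and 3 is not particular to let-7. The exact paired permutation test over libraries, two-sided, gave p = 0.25, the smallest that 3 libraries allow, so these libraries cannot show that the arms differ.

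A part covered at least 8 nt of the loop at the same 3 hairpins as the 5p arm, but at none of them in every library. In replicate 2 alone, parts also reached 3 nt into the loop of Mirlet7e and 2 nt into that of Mirlet7f-1. In all 3 libraries the count was 0 of 10, against 2.23% of hairpins, and in at least 1 library it was 3 of 10, against 24%. Mirlet7i had 94.1%, 91.2% and 26.5% of its loop covered in replicates 1, 2 and 3. In replicate 3 that was 9 nt under 2 parts that reached in from either side, of which neither covered 8 nt. When the bases under all parts were added up, an alternative chosen after seeing the data, Mirlet7i passed in every library and the count was 1 of 10. Mirlet7d had 3.12% covered in replicate 1 and the whole loop in the other libraries, and Mirlet7g 17.6% in replicate 1 and the whole loop in the others. The result turned on the overlap required, and with a minimum of 1 nt these 3 hairpins had a covered loop in all libraries. At 8 nt it was 2 of 10 without replicate 1 and 1 of 10 without replicate 3. All 3 carry GGAG in the loop, as do the 5 let-7 hairpins with that sequence whose loop was not called.

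**Figure D2:**
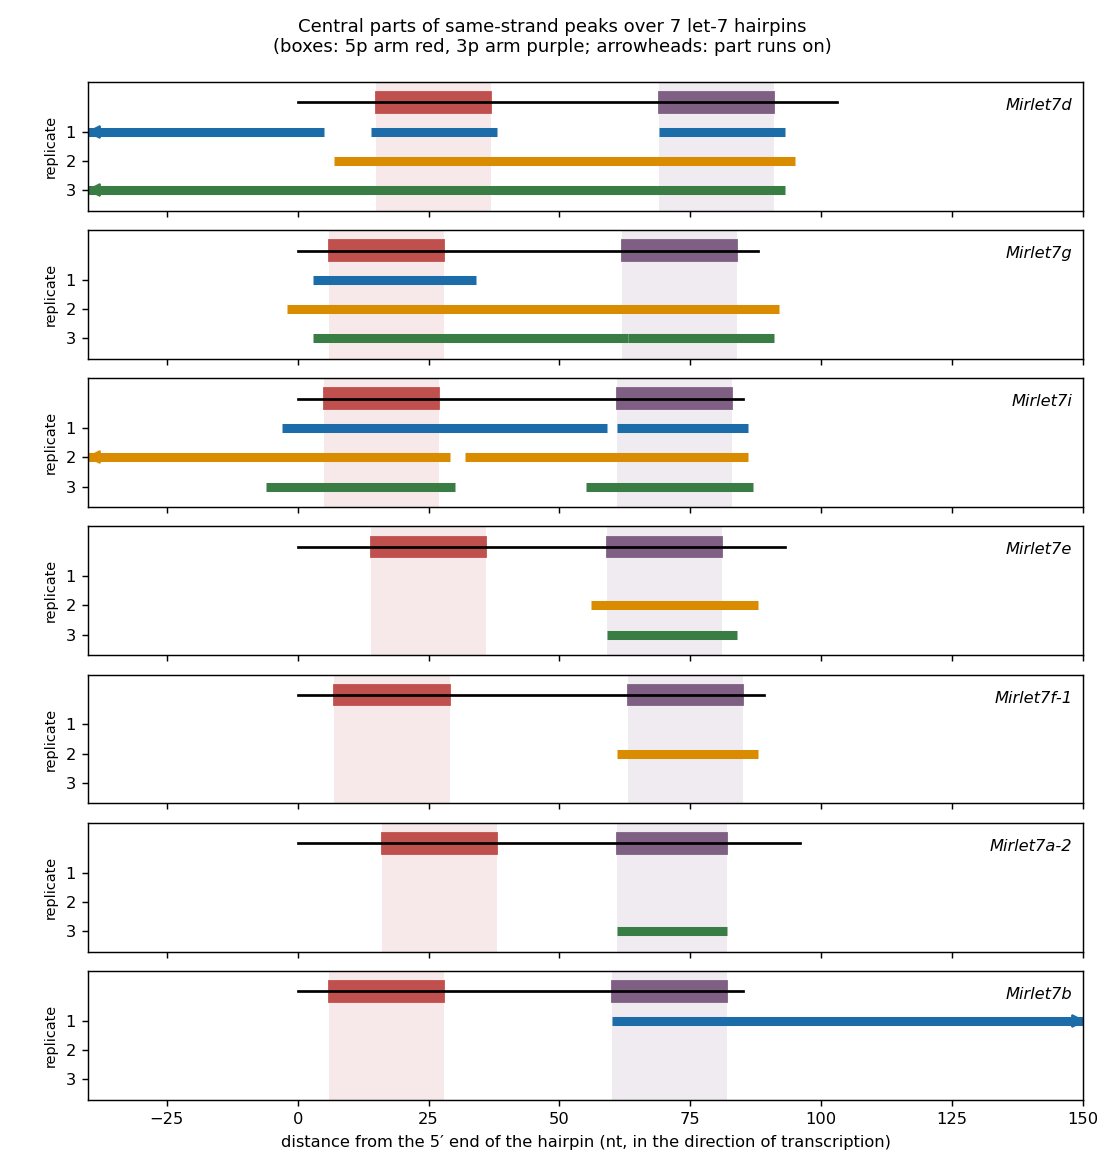
Central parts of same-strand peaks (bars, 1 row and colour for each replicate) along the 7 let-7 hairpins that had any, against distance from the hairpin's 5′ end in nt. Boxes on the black hairpin line and shaded bands mark the 5p (red) and 3p (purple) arms, and arrowheads mark parts that run beyond the plot. The bars of Mirlet7e, Mirlet7f-1 and Mirlet7a-2 sit on the 3p arm. Those of Mirlet7d in replicates 2 and 3 and of Mirlet7g in replicate 2 run across both arms.

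At Mirlet7d the 3 libraries differed in how they divided the hairpin. In replicate 1 separate parts of 24 nt lay on the arms, at chr13:48536077-48536100 on the 5p arm and chr13:48536022-48536045 on the 3p arm, each ending within 2 nt of the mature sequence at both ends, and a further part of 47 nt lay upstream and reached into the start of the hairpin. In replicate 2 a single part of 88 nt ran from 8 nt upstream of the 5p arm to 4 nt past the 3p arm. In replicate 3 a part of 275 nt began 197 nt upstream of the 5p arm and ended 2 nt past the 3p arm. The 3p ends of the 3 libraries therefore lay 2 to 4 nt past the mature end, while the 5′ sides differed.

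At Mirlet7g the part of replicate 1 was 31 nt long and lay on the 5p arm alone, from 3 nt upstream of the guide to 6 nt past its end. In replicate 2 a part of 94 nt covered the hairpin end to end, reaching 8 nt beyond the mature sequence on each side. In replicate 3 a part of 60 nt began at the same base as in replicate 1, ran into the loop, and was followed directly by a part of 28 nt on the 3p arm.

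At Mirlet7i every library had separate parts on the 2 sides of the hairpin. The part on the 5p side was 62, 1379 and 36 nt long in replicates 1, 2 and 3 and began 8, 1355 and 11 nt upstream of the guide. The part on the 3p side was 25, 54 and 32 nt long and ended 3, 3 and 4 nt past the mature 3p end. The very long part of replicate 2 lay upstream of the hairpin and stopped 2 nt past the guide's 3′ end.

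The other hairpins with peaks had a part on the 3p arm alone. At Mirlet7e it was 32 nt in replicate 2 and 25 nt in replicate 3, beginning 3 nt upstream of the mature 5′ end and exactly at it. At Mirlet7f-1 in replicate 2 it was 27 nt and began 2 nt upstream. At Mirlet7a-2 in replicate 3 the part of 21 nt, chr9:41536777-41536797, was exactly the mature let-7a-2-3p. At Mirlet7b in replicate 1 it began exactly at the mature 5′ end but ran on for 894 nt.

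Of the 19 central parts counted on let-7 arms, with a part that covers both arms counted for its 5′ side alone, 8 began within 2 nt of the mature 5′ end, 4 of 6 in replicate 1, 1 of 6 in replicate 2 and 3 of 7 in replicate 3. Without replicate 1 the count was 4 and without replicate 3 it was 5. Over all hairpins 65.2% of 1030 did, 73.6%, 64% and 61.6% in replicates 1, 2 and 3. These parts also served to judge the padding, and both shares moved with it: 7 of 19 and 60.4% at 29 nt, and 11 of 19 and 67.1% at 31 nt. Among let-7 parts of at most 40 nt, 7 of 11 began there, with a median start 1 nt upstream and a median end 3 nt past the mature sequence. Among those over 40 nt 1 of 8 did. For all hairpins the counts were 618 of 833 and 54 of 197.

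Coverage of an arm was set beside whether its mature sequence recurs at another hairpin. Of the 5 hairpins whose 5p sequence recurs, Mirlet7a-1, Mirlet7a-2, Mirlet7c-1, Mirlet7c-2 and Mirlet7f-1, none had its 5p arm covered in any library. Of the 60 such hairpins among the 629 with both arms known, 3.33% had it covered in at least 1 library and 0% in all. Of the 5 whose 5p sequence is found in 1 hairpin, Mirlet7d, Mirlet7g and Mirlet7i were covered and Mirlet7b and Mirlet7e were not, 3 of 5 against 50.6% of 569 hairpins. Of the 2 hairpins with a recurring 3p sequence, Mirlet7a-1 and Mirlet7c-2, none was covered, against 4.44% of 45. Of the 8 with a 3p sequence of their own 7 were covered in at least 1 library, against 56.7% of 584, and Mirlet7c-1 was the exception. In all 3 libraries the counts for sequences found in 1 hairpin were 3 of 5 for the 5p arm, against 14.8%, and 2 of 8 for the 3p arm, against 13.4%. A lack of peaks at Mirlet7a-1, Mirlet7a-2, Mirlet7c-1, Mirlet7c-2 and Mirlet7f-1 on the guide arm cannot be told apart from fragments that were not assigned to a single place.

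**Figure D3:**
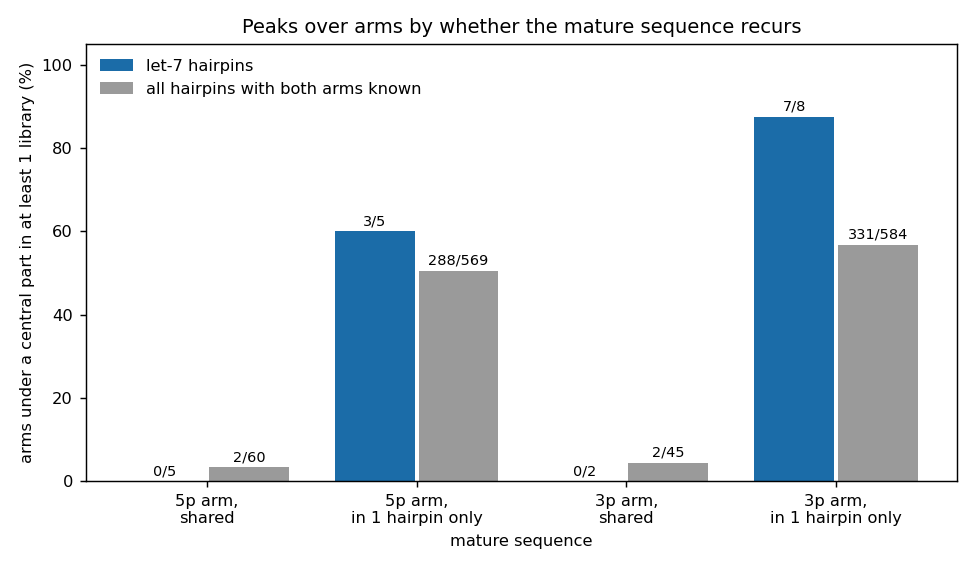
Percent of arms under a central part in at least 1 of the 3 libraries, by arm and by whether the mature sequence recurs at another hairpin, for the 10 let-7 hairpins (blue) and the 629 hairpins with both arms known (grey), with the counts above the bars. Recurring sequences were covered at 0 of 5 and 0 of 2 let-7 hairpins and at 2 of 60 and 2 of 45 of all hairpins.

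The deposited score was more often low over the hairpins than around them. It was 60 for nearly every peak in the table and lower for 0.705% of them, and its unit is not given in the sources used here. Of the 20 same-strand peaks over let-7 hairpins 15 had a score under 60, 5 in each library, against 33.5% of the 1742 peaks over any hairpin. The lowest let-7 score was 55.4, for the Mirlet7e peak of replicate 3. Of the 118 same-strand peaks of the windows that lay over no member 5 had a score under 60. Of these, 4 were among the 8 peaks over the neighbouring hairpins Mir99a, Mir99b and Mir125a, and 1 was among the 110 peaks outside all hairpins. Those with a score of 60 included the only peaks of Mirlet7a-2, Mirlet7b and Mirlet7f-1.

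The windows around the hairpins held peaks mostly on the hairpins' strand. Within 5 kb the same strand had 43, 37 and 58 peaks in replicates 1, 2 and 3, and the opposite strand 6, 5 and 10. The same strand thus had 46 ± 10.8 peaks against 7 ± 2.65 (mean ± SD, n = 3), or 87.0 ± 1.53% of the total, and the ranges of the strands did not overlap. The exact paired permutation test, two-sided, gave p = 0.25, the smallest possible here. Over the windows of all hairpins the same-strand share was 66.3 ± 5.04%. Of the 138 same-strand peaks 20 lay over a member.

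**Figure D4:**
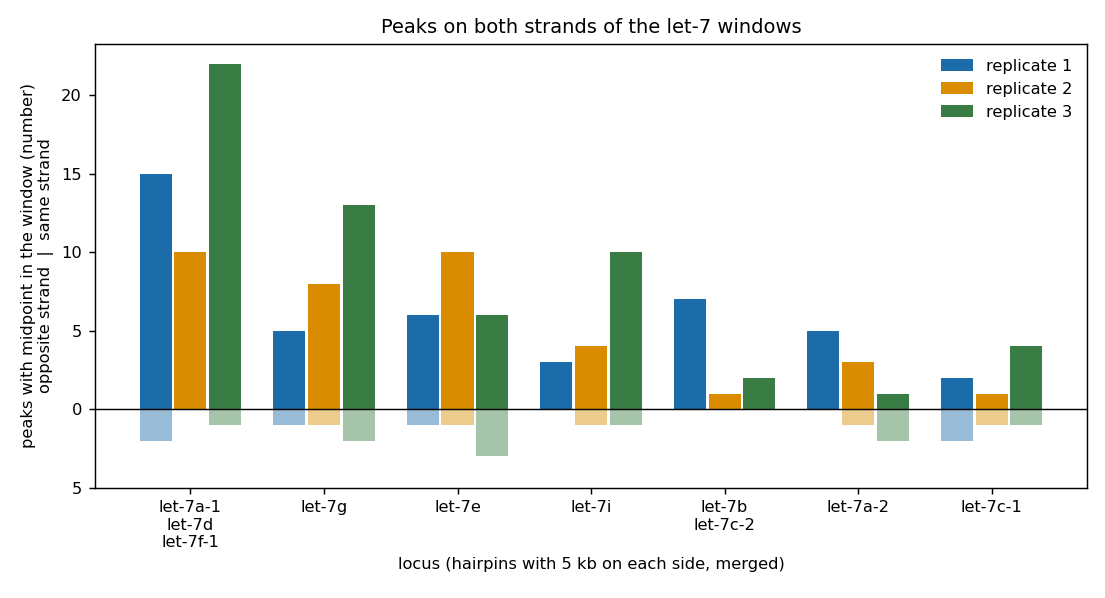
Number of peaks with their midpoint in each of the 7 let-7 windows, on the same strand (solid bars, upward) and the opposite strand (pale bars, downward), with 1 bar for each replicate. The window of Mirlet7a-1, Mirlet7d and Mirlet7f-1 had 15, 10 and 22 same-strand peaks, and that of Mirlet7b and Mirlet7c-2 had no opposite-strand peak in any replicate.

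The same strand had more peaks than the opposite strand in every library at 5 of the 7 loci, against 23% of the 1847 merged windows of all hairpins. The 2 exceptions were Mirlet7c-1, with 2, 1 and 4 peaks on its own strand and 2, 1 and 1 on the other in replicates 1, 2 and 3, and Mirlet7a-2, with 5, 3 and 1 against 0, 1 and 2. The Mirlet7g window had 5, 8 and 13 same-strand peaks and the Mirlet7e window 6, 10 and 6. The Mirlet7i window had 3, 4 and 10 and the Mirlet7b and Mirlet7c-2 window 7, 1 and 2, so that the order of the libraries differed from locus to locus. The background of 23% was not matched for the number of peaks, and a window without peaks in a library cannot be counted. Each let-7 hairpin lay in a gene on its own strand, and the windows of all hairpins were not matched for this either.

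**Figure D5:**
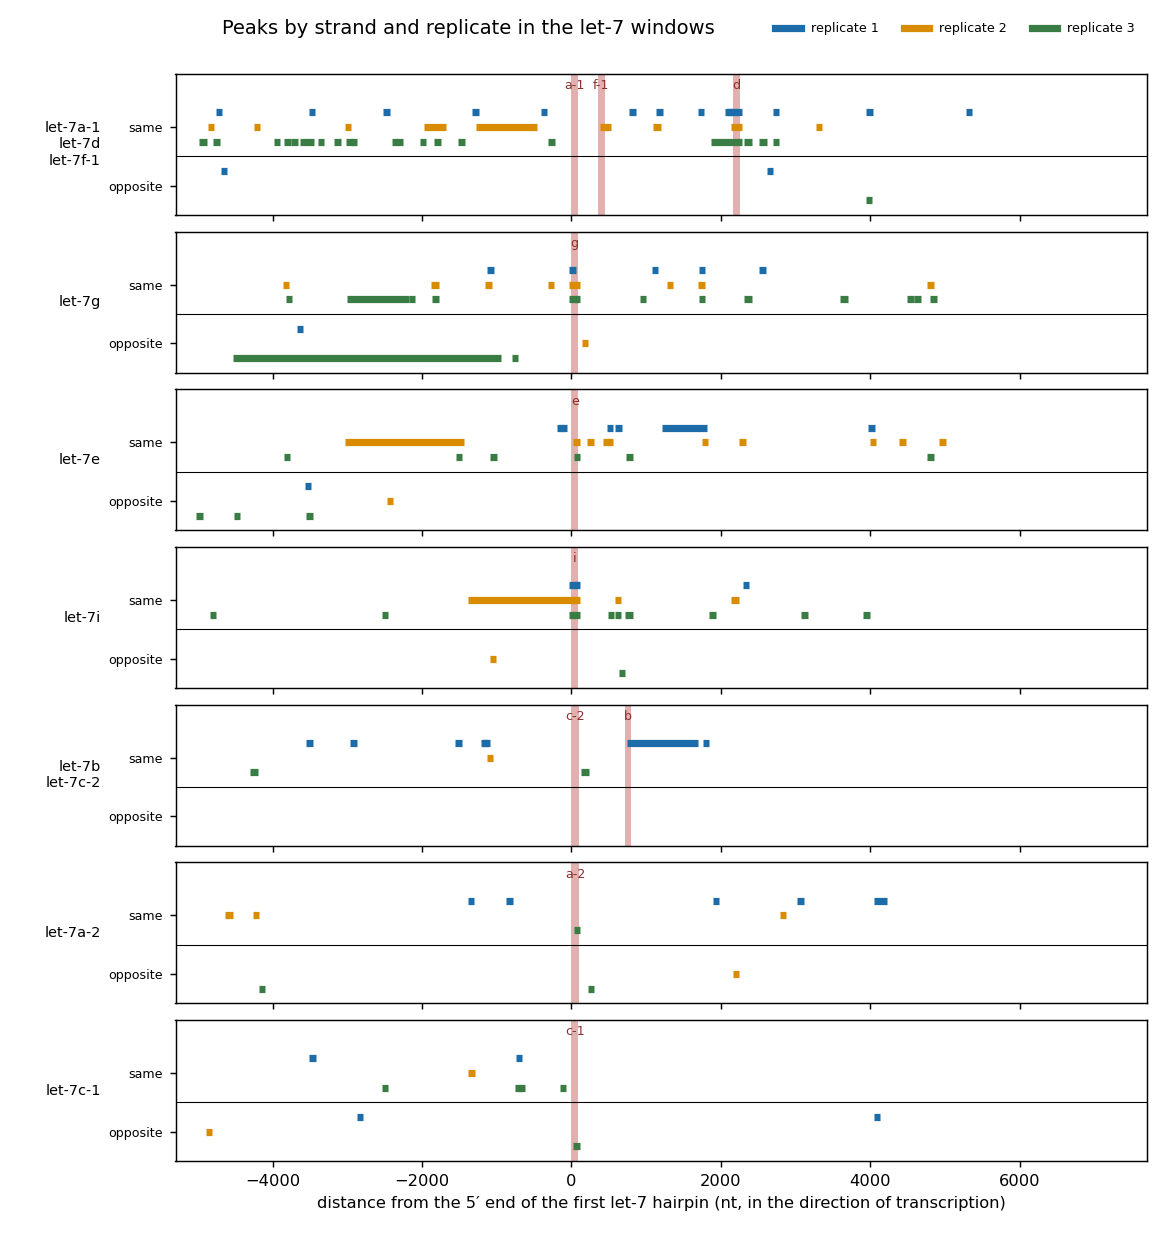
Position of every peak in the 7 let-7 windows, as distance in nt from the 5′ end of the first let-7 hairpin of the locus. Rows above the line hold same-strand peaks and rows below it opposite-strand peaks, with replicates 1 to 3 from top to bottom in their colours, and red bands mark the hairpins. Same-strand peaks of all 3 replicates coincide at Mirlet7d, Mirlet7g and Mirlet7i and at 1 further place downstream of Mirlet7g, and 1 opposite-strand peak lies over a let-7 hairpin, Mirlet7c-1.

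Coverage was denser over the hairpins than over their flanks. Same-strand peaks as deposited covered 33.3%, 43.5% and 43.9% of the 922 hairpin bases in replicates 1, 2 and 3, and 6.49%, 11.6% and 7.85% of the flank bases. The ratio of the shares was 5.13, 3.76 and 5.59, or 4.83 ± 0.955 (mean ± SD, n = 3; exact paired permutation test, two-sided, p = 0.25, the smallest possible). For all hairpins the ratio was 3.21 ± 0.348, and the let-7 value was higher in each library. With peaks of 86 to 200 nt alone the let-7 ratio was 10.1.

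In the let-7 windows 4 stretches were covered on the hairpins' strand in all 3 libraries, and 3 of them were hairpins. They were chr13:48535992-48536137 over Mirlet7d (146 nt), chr9:106178813-106178903 over Mirlet7g (91 nt) and chr10:122985609-122985757 over Mirlet7i (149 nt). The other, of 81 nt at chr9:106180547-106180627, lay 1620 nt downstream of Mirlet7g, and 62 nt of it were in an exon of Wdr82, its host gene. The window of the chromosome 13 trio had 47 same-strand peaks in the 3 libraries together, yet no stretch other than Mirlet7d was covered in all of them.

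Some let-7 hairpins are transcribed together with hairpins of the miR-99/100 and miR-125 families. Within the let-7 windows, Mir99a, beside Mirlet7c-1, had 1, 0 and 2 same-strand peaks in replicates 1, 2 and 3. Mir99b and Mir125a, beside Mirlet7e, had 2, 0 and 0 and 1, 2 and 0. None of these neighbours was covered in all libraries, and at the Mirlet7c-1 locus the neighbour was covered and Mirlet7c-1 was not. Outside the windows, Mir100 and Mir125b-1, on the chromosome of Mirlet7a-2, had 1, 0 and 0 and 0, 1 and 1 peaks. Mir125b-2, on the chromosome of Mirlet7c-1, had 1 in each library. The Mir100 peak ended at chr9:41531491, just short of the Mirlet7a-2 window, which began at chr9:41531716.

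The hairpins most like the median let-7 hairpin were sought over 6 values, the covered percent of the 5p and 3p arm in 3 libraries. That median was 0% for the 5p arm in all replicates and 0%, 50% and 50% for the 3p arm in replicates 1, 2 and 3. The nearest were Mir7080, Mir344g, Mir216c, Mir146b and Mir374b, with mean absolute differences of 12.9, 13.6, 13.8, 14.4 and 14.4 percentage points, and Mir490 tied with the last. Each of the 5 had its 5p arm uncovered and its 3p arm partly covered in 1 library. A hairpin with no peak would differ by 16.7 percentage points, and no let-7 hairpin has the median profile, since each let-7 arm was covered wholly or not at all, so the order shows little likeness to the family.

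Genes known to act on let-7 maturation were examined through peaks in their 3′UTRs, where Ago2 meets targets. Of 15 regulators, a list chosen with earlier results of these data known, 9 were covered there on their own strand in every library, beside the 23.9% of protein-coding genes given above. They included Lin28a and Lin28b, which bind let-7 precursors, Tut4, which adds uridines to them, and Trim71, a known let-7 target. Dis3l2, the exonuclease that degrades the uridylated precursor, had none in any library. The length of the 3′UTRs and the level of the transcripts, both of which bear on such counts, were not taken into account.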

How the data were processed

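Peaks of 3 Ago2 HITS-CLIP libraries of N2A cells were analysed. The submitters' processing notes name FastQC, cutadapt and STAR and the genome build mm10, which is GRCm38; versions, the peak caller, its threshold and the treatment of fragments that match several places are not given in the sources used here. Per-library peak intervals, each with strand and score but no counts, were deposited by the authors as 1 table. The unit of the deposited score is not stated, its values ran from 54.6 to 60, and peaks were not ranked by it.

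Starts were read as counted from 0 and stops from 1. A peak counted for a hairpin with at least 1 nt of overlap. Central parts were peaks less 30 nt on each side and had to overlap an arm by 15 nt or a loop by 8 nt. Hairpins, genes and 3′UTRs came from GENCODE M21 (2202 hairpins; 21028 genes with a 3′UTR, the longest of each), and mature sequences from RefSeq, whose table held 1005 hairpins, 629 of them with both arms and matched by symbol and place. For 4 hairpins, Mirlet7a-2 included, an arm was placed through the identical sequence of another locus. In windows a peak was counted by its midpoint, and flank bases excluded the hairpins.

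Counts over members have no test and are set beside the same share over all features. Paired differences between strands, arms or regions used the exact permutation test over libraries (sign flips, two-sided), whose smallest p with 3 libraries is 0.25. Members and gene lists were chosen with earlier results of these data known. All members, every hairpin in the windows and every host gene were named, with the 5 hairpins most like the member median and, of the regulators, those without a peak and the first 4 with one in all libraries. Alternatives covered overlap, padding, peak width, flank length, number of libraries and each replicate left out. Calls, offsets and window counts were tested on simulated data. Python 3.11.15, numpy 2.4.6, pandas 2.3.3 and matplotlib 3.10.9 were used.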

Additional observations from a re-analysis of the deposited data

Results flagged for a closer look

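Peaks were also seen over the family's X-linked hairpins, which are not among the 10 members and enter the comparisons only as part of all hairpins. Over Mirlet7f-2 and Mir98, a let-7 relative with the same guide seed, there were 7 same-strand peaks in the 3 libraries together. They are given because the members' counts leave them out. A same-strand peak in at least 1 library was found for 67.9% of hairpins with known arms and 35.8% of all hairpins, and one in all 3 libraries, as at Mir98, for 21.8% and 8.4%. Of the 7 peaks Mir98 had 6, 2 in each library, and Mirlet7f-2 had 1, in replicate 1. The opposite strand had 3. At Mir98 the central parts covered the whole 5p arm in all 3 libraries and 95.5%, 100% and 100% of the 3p arm in replicates 1, 2 and 3. The loop was covered over 8.33%, 94.4% and 11.1%. At Mirlet7f-2, whose 5p sequence is that of Mirlet7f-1, the peak lay on the 3p arm and the 5p arm was not covered.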

How the results depend on the processing

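Over 8 results 60 alternatives were run, of which 16 moved a count by over 1.5 times and 0 reversed a direction. The other 44 left a count within 1.5 times, or a tested value on the same side of no difference, whatever its size. Mirlet7g and Mirlet7i had a same-strand peak in all libraries under every alternative, and Mirlet7d was lost when peaks over 200 nt were left out (2 hairpins), since its peak in replicate 3 is wider. The count was 4 with at least 2 libraries, and 3 to 4 with each replicate left out. The opposite-strand count of 1 became 0 with peaks of 86 to 200 nt and 0 with at least 2 libraries, and was 0 to 1 with a replicate left out. With peaks of 86 to 200 nt, which drops the narrow peaks too, the 5p count fell from 3 to 1 and the 3p count from 2 to 0. The 3p count was 4 with at least 2 libraries and 2 to 4 with a replicate left out. The loop count of 0 became 3 with a smaller overlap, 3 with peaks as deposited, 3 with at least 2 libraries and 1 with loop bases summed over central parts, the last chosen after seeing the data, and was 0 to 2 with a replicate left out. Of the 8 central parts near a mature 5′ end 5 began exactly there, and with a replicate left out 4 to 7 remained near it, since fewer parts were counted; padding of 29 or 31 nt gave 7 and 11. The same-strand share of window peaks ranged from 84.2%, with peaks over any hairpin left out, to 97.7%, and the ratio of hairpin to flank coverage from 3.41 to 10.1, the highest of both with peaks of 86 to 200 nt. No paired analysis was possible because the replicate numbers link no groups, there being 1 group; the paired tests in the text set values of the same library against each other. Read depth is unknown, so the lack of a peak is not the absence of Ago2 at a hairpin.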
